A study of Parasteatoda tepidariorum with 10 samples.

Results

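In stage-3 embryos of the house spider *Parasteatoda tepidariorum*, 330 regions of open chromatin had an ATAC-seq peak in both wild-type lists and both *Pt-hh* pRNAi lists and in neither *fuchi* pRNAi list. They were chosen by these same measured peaks. Each of the 6 stage-3 lists was first cut, by signal, to the length of the shortest list, and peaks overlapping by 1 bp or more were merged into 20289 regions, of which the 330 are a part. Of the 5445 regions with peaks in both wild-type and both *Pt-hh* pRNAi lists, 4268 had a peak in both *fuchi* pRNAi lists as well, 847 had a peak in 1 of them, and the 330 (6.06%) had none. This count describes the selection and carries no test. It was 641 when wild-type replicate 2 was left out, 586 without *fuchi* pRNAi replicate 1 and 919 without *fuchi* pRNAi replicate 2. Leaving out a library removes a condition of the selection, so the count can hardly fall. The reverse selections held 138 regions that lacked both wild-type peaks and 78 that lacked both *Pt-hh* pRNAi peaks while having peaks in the other 4 lists.

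ATAC-seq marks chromatin that the Tn5 transposase can enter, and its peaks often lie at promoters and enhancers. GATA factors are zinc finger proteins that bind GATA-containing DNA, and several of them act early in endoderm formation and can bind sites in closed chromatin in other animals. *fuchi* encodes a GATA-like transcription factor of spiders. *Pt-hh* is the spider *hedgehog* gene, which encodes a secreted signal, and its knockdown served the study as a comparison.

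All libraries came from whole embryos, with 2 libraries in each of 5 groups. Wild-type embryos were taken at stage 1, stage 2 and stage 3, which correspond to 9, 12 and 18 h after egg laying (AEL). The *fuchi* pRNAi and *Pt-hh* pRNAi embryos were stage-3 offspring of females injected with double-stranded RNA 3 and 4 times, respectively, so the knockdown began in the mother and its extent in each pool of embryos was not measured by these lists. Each stage-3 library was made from 40 embryos and each earlier library from 200. Source names carry the code 39 for wild-type stage-3 replicate 1 and *Pt-hh* pRNAi replicate 2, and the code 40 for the other 4 stage-3 libraries, so both *fuchi* libraries shared a code with 1 library of each other stage-3 group. Among the earlier libraries, replicate 1 of stage 1 and of stage 2 carry 39 and stage 2 replicate 2 carries 40. Stage 1 replicate 2 carries KK, which no stage-3 library has. Fewer open cells and a weaker opening in each cell cannot be told apart in whole embryos. The deposited stage-3 lists held up to 23045 peaks and the earlier ones 23985 to 137892. The list of *fuchi* pRNAi replicate 1 was the shortest and set the common length of all lists, its rank limit.

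The 330 regions were of middling signal. The percentile of a peak is its rank by signal within its own list, with 100 the strongest, and a region takes that of its strongest peak. The median percentile of the 330 regions was 49.9 in wild-type replicate 1, 36.0 in wild-type replicate 2, 46.6 in *Pt-hh* pRNAi replicate 1 and 45.9 in *Pt-hh* pRNAi replicate 2. The mean over the 4 libraries had a median of 43.4 (range 8.43 to 86.9), against 72.2 for regions with peaks in all 6 lists. Over their own 4 libraries, the median was 36.9 for regions lacking both wild-type peaks. It was 35.4 for those lacking both *Pt-hh* pRNAi peaks, so signal below all-6 regions was not particular to the 330. Wild-type replicate 2 was the library of lowest percentile for 130 of the 330 regions, and the other libraries for 55 to 74 each. In that library the regions also fell below all-6 regions of matched mean percentile, whose median was 46.2. Only the mean over the 4 libraries was matched. The matched median was 42.7 in wild-type replicate 1, where the 330 regions lay above it. It was 46.1 and 48.2 in *Pt-hh* pRNAi replicates 1 and 2. Within a region, the gap between its highest and lowest percentile had a median of 35.9 points, close to the 37.2 points of the matched regions.

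The share of regions in the set fell with signal. Among regions of the 4 other lists, the share that lacked both *fuchi* pRNAi peaks was 27.8% between the 10th and 20th percentile (20 of 72), 9.92% between the 40th and 50th (63 of 635) and 1.10% between the 80th and 90th (9 of 818). In the top 10 points, 0 of 811 regions lacked both. Few of the regions were strong in every library: 47 were at or above the 50th percentile in all 4 libraries, and 12 were at or above the 70th. The fall of the share with signal was not examined for the sets lacking wild-type or *Pt-hh* pRNAi peaks.

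**Figure D1:**
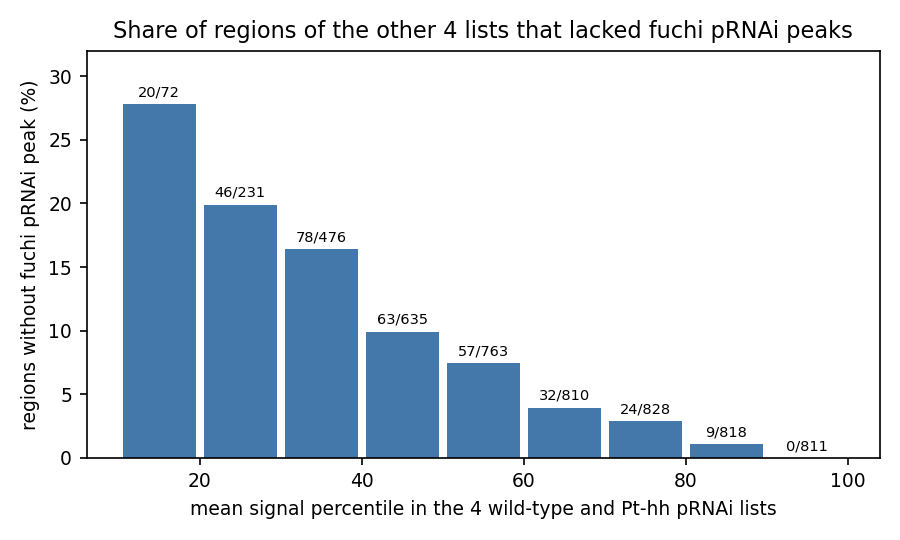
Percentage of regions with peaks in both wild-type and both *Pt-hh* pRNAi lists that had no peak in either *fuchi* pRNAi list (vertical axis), by mean signal percentile over those 4 lists in 10-point bands (horizontal axis), with counts above the bars. The share falls from 27.8% in the lowest band drawn to 0 of 811 in the highest, and the only region below the 10th percentile, which was in the set, is not drawn.

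The plot of percentiles by library shows the same regions one by one. The rows are ordered by the mean of the 4 stage-3 columns, so their shading from strong to weak follows from that order. The 4 columns of stages 1 and 2 are mostly empty.

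**Figure D2:**
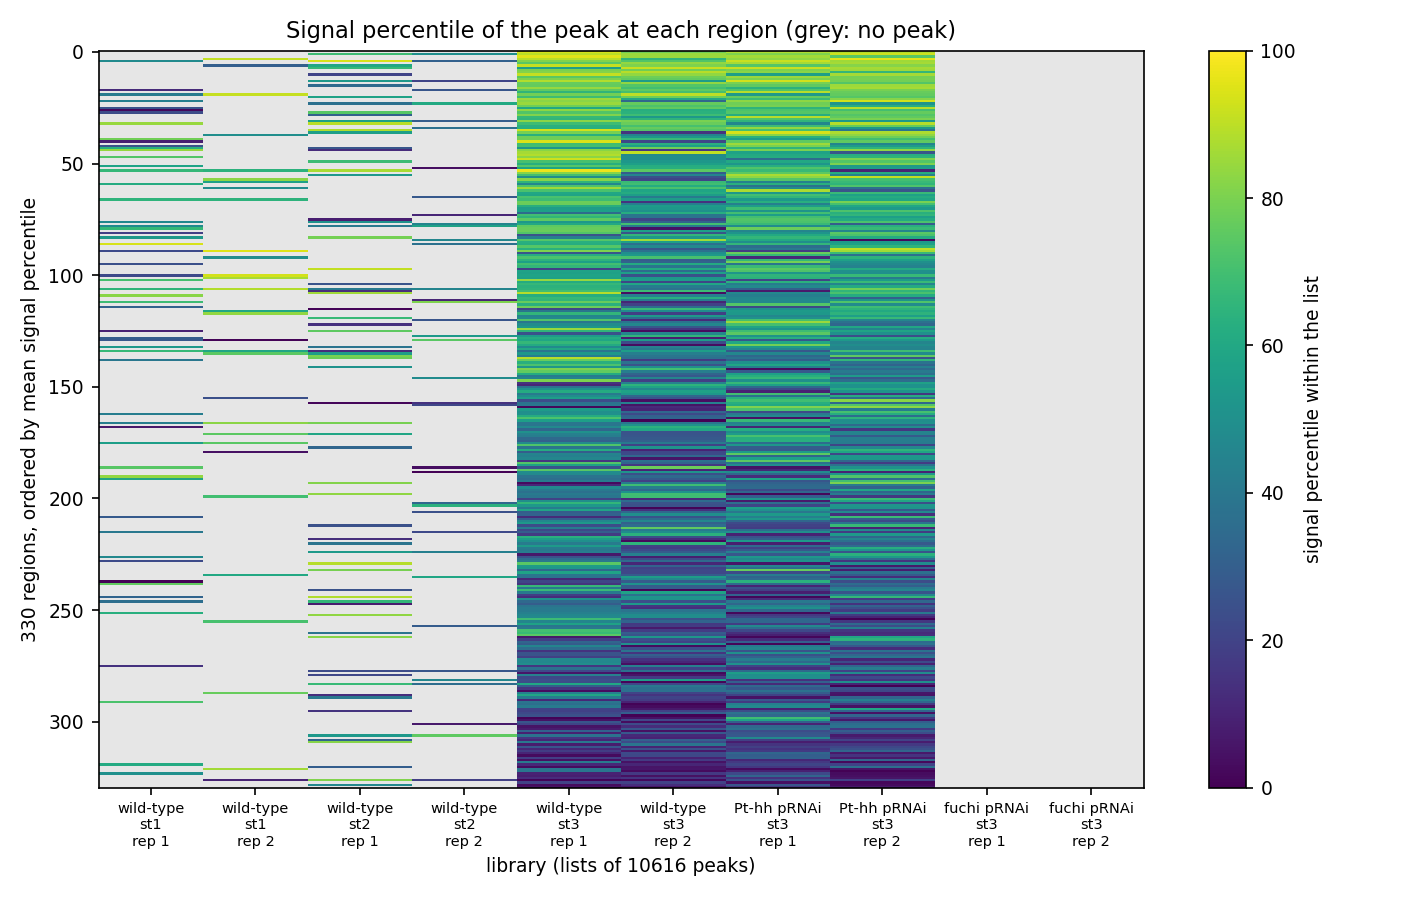
Signal percentile (colour, 0 to 100) of the strongest peak at each of the 330 regions (rows, strongest mean at the top) in 10 libraries cut to equal length (columns), with grey where the library had no peak. The *fuchi* pRNAi columns are empty and the 4 other stage-3 columns full because the regions were chosen that way, and the stage-1 and stage-2 columns hold 30 to 70 peaks each.

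Peaks at the 330 regions were broader, and lower in −log10 p-value at the summit, than those at all-6 regions of matched mean percentile. Median peak width in the 4 libraries was 564.5, 476, 551.5 and 556.5 bp (wild-type replicates 1 and 2, then *Pt-hh* pRNAi replicates 1 and 2), and the matched values were 462, 411, 471 and 482 bp. The median −log10 p-value at the summit was lower than the matched median in 4 of 4 libraries, for example 4.18 against 4.30 in wild-type replicate 1 and 4.32 against 4.59 in *Pt-hh* pRNAi replicate 1. Signal adds up significance along a peak, so at equal signal a wider peak has a lower average. The summit value is not that average, and whether width accounts for the lower summit values was not tested. Signal was matched for the mean over the 4 libraries and not within each. When peaks were ranked by p-value instead, the regions chosen overlapped only 191 of the 330. Their merged median width was 595 bp against 629 bp for the matched regions, so the order of merged widths was reversed. Merged widths of matched regions also take in *fuchi* pRNAi peaks, which the chosen regions lack. With signal ranking the merged widths were 664.5 bp (range 242 to 3681 bp) and 567 bp. Over the 4 libraries alone, the matched width was 549 bp. No width over those 4 libraries was taken with p-value ranking, so whether the difference depended on the ranking is not decided. Of the 330 regions, 63 exceeded 1000 bp. The summits of the 4 libraries lay close together in both sets, with a median spread of 56 bp against 51 bp.

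Named by the highest percentile in the weakest library, the strongest of the 330 was NW_018378926.1:3406057-3406897 (Ptep_2.0 here and throughout). Its percentiles were 89.6 and 84.9 in the wild-type replicates and 80.6 and 92.5 in the *Pt-hh* pRNAi replicates. It was thus in the upper ranks of all 4 lists, and no peak of either *fuchi* pRNAi list, cut or full, overlapped it. The nearest *fuchi* peak was 17546 bp away in replicate 1. The region also had a peak in both stage-2 lists, at percentiles 68.6 and 49.9, and in neither stage-1 list.

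Other regions of this kind differed in their early history. NW_018370506.1:6049301-6050029 had percentiles of 79.7 and 78.2 in the wild type and 80.7 and 85.6 after *Pt-hh* pRNAi, and no peak in any deposited list of stages 1 and 2. NW_018380111.1:1323718-1324476 had percentiles of 91.2, 80.7, 73.3 and 81.9 in the same order, and peaks at percentiles 30.3 in stage 1 replicate 2 and 60.1 in stage 2 replicate 1. The remaining 5 of the 8 strongest had percentiles of 74.2 or more in their weakest library. Of these, NW_018369794.1:1104145-1105021 and NW_018378439.1:3701655-3702323 overlapped peaks of the full list of *fuchi* pRNAi replicate 2 at ranks 11095 and 11094, below the limit.

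At the other end, membership turned on small differences in rank. NW_018380033.1:1272973-1273426 was the region closest to the limit, with rank 10611 in wild-type replicate 2 and percentiles of 25.0, 33.7 and 32.9 in the other 3 lists. NW_018374972.1:749583-750154 was held by rank 10603 in *Pt-hh* pRNAi replicate 2, and NW_018379283.1:9145733-9147489 by rank 10599 in wild-type replicate 2. Just outside, NW_018367643.1:4583819-4584309 missed by rank 10621 in wild-type replicate 1. NW_018380873.1:296001-296993 missed by rank 10624 in wild-type replicate 2 although its mean percentile in the other 3 lists was 81.1, and NW_018378079.1:2898834-2899263 missed by rank 10633 in *Pt-hh* pRNAi replicate 2. In all, 653 regions had 3 of the 4 peaks and none in the *fuchi* pRNAi lists. Of these, 312 lacked the peak of wild-type replicate 2, and 309 had the missing peak below the limit of the full list.

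The absence of *fuchi* peaks was in part an absence below the limit. The list of *fuchi* pRNAi replicate 1 had no peaks beyond the limit to search. In replicate 2, with 3061 further peaks, 82 of the 330 regions (24.8%) overlapped one, at a median rank of 11758 of 13677 and a median signal of 227, against 246 at the limit. The other 248 had no peak in either full list. The share of other regions that overlapped these further peaks was not taken, so the 24.8% has no background beside it. The 82 and the 248 regions were alike in stage-3 signal (median percentile 42.7 and 43.5) and in the mean share with an early peak (14.6% and 14.9%).

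The best ranked of these weak peaks was at NW_018373717.1:2429256-2429818, with rank 10651 in *fuchi* pRNAi replicate 2 and percentiles of 76.8, 4.72, 77.7 and 67.3 in the wild-type and *Pt-hh* pRNAi lists. The next were NW_018378021.1:900771-901538, with rank 10654, and NW_018370256.1:2087124-2087577, with rank 10686. The third had percentiles of 62.2 or more in all 4 other lists, so a weak *fuchi* peak did not require a weak region. Counting both full lists, 9 of the 330 regions had a *fuchi* peak within 1 kb without overlap, and 66 had one within 5 kb. These counts were not set against other regions.

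The comparison with stages 1 and 2 asked whether these regions were already open before stage 3 in the wild type, in libraries that the selection had not used. At the common length, peaks of stage 1 replicates 1 and 2 overlapped 58 regions (17.6%) and 30 regions (9.09%). Those of stage 2 replicates 1 and 2 overlapped 70 regions (21.2%) and 38 regions (11.5%). All-6 regions of matched signal had a peak more often in each of the 4 libraries, with 46.3% and 25.5% at stage 1 and 52.0% and 48.6% at stage 2. Stage 1 replicate 2, with the code KK and the longest deposited list, had the lowest share in both sets. The mean difference was −28.2 ± 8.67 percentage points (SD, n = 4 libraries). The exact two-sided sign-flip permutation test gave p = 0.13, the smallest p that 4 libraries allow, so no result here could be called significant. Without *fuchi* pRNAi replicate 1 in the choice of regions, the difference was −17.5 points.

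The gap was smaller against regions with a peak in 1 *fuchi* list. The number of lists with a peak and the presence of a *fuchi* peak cannot be told apart there. All-6 regions had peaks in both *fuchi* lists by definition, which the 330 had not. Against the 847 regions with a peak in 1 *fuchi* list, matched in the same way and chosen after seeing the data, the mean share was 14.8% against 24.7%, a difference of −9.82 points (lower in 4 of 4 libraries, exact permutation p = 0.13). The sets that lacked another group are a further reference, with peaks in 4 of 6 lists as well. Regions lacking both wild-type peaks had early peaks in 23.9%, 15.2%, 31.2% and 34.1% in the same library order. Those lacking both *Pt-hh* pRNAi peaks had them in 52.6%, 21.8%, 39.7% and 62.8%. The 330 regions were thus below both other sets in each of the 4 libraries. The signal of these sets was measured in different libraries and was not matched, and the difference between them was not tested. The part of width and summit p-value in the early difference was not tested.

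**Figure D3:**
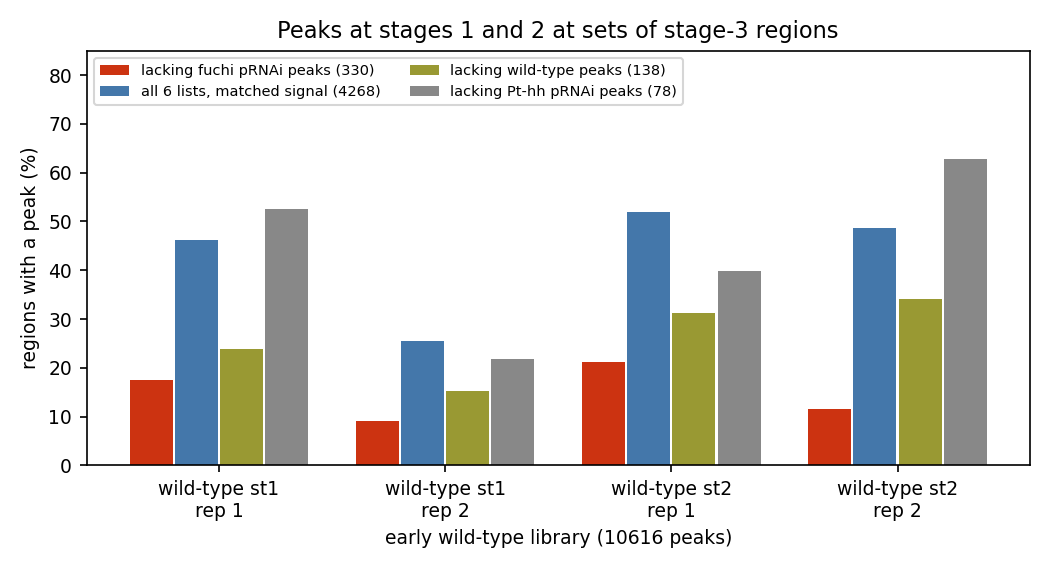
Percentage of regions with a peak (vertical axis) in each wild-type library of stages 1 and 2 cut to equal length (horizontal axis), for the 330 regions lacking *fuchi* pRNAi peaks, all-6 regions weighted to the same signal, and regions lacking wild-type or *Pt-hh* pRNAi peaks. The 330 regions are the lowest in each library, at 9.09% to 21.2%.

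The difference held along the range of stage-3 signal. Split by mean percentile into a lower, a middle and an upper set of 110 regions each, the mean share with an early peak over the 4 early libraries was 10.9%, 13.6% and 20.0%, and the shares of all-6 regions in the same signal ranges were 38.0%, 43.1% and 52.3%. In both sets the share was higher at higher signal.

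**Figure D4:**
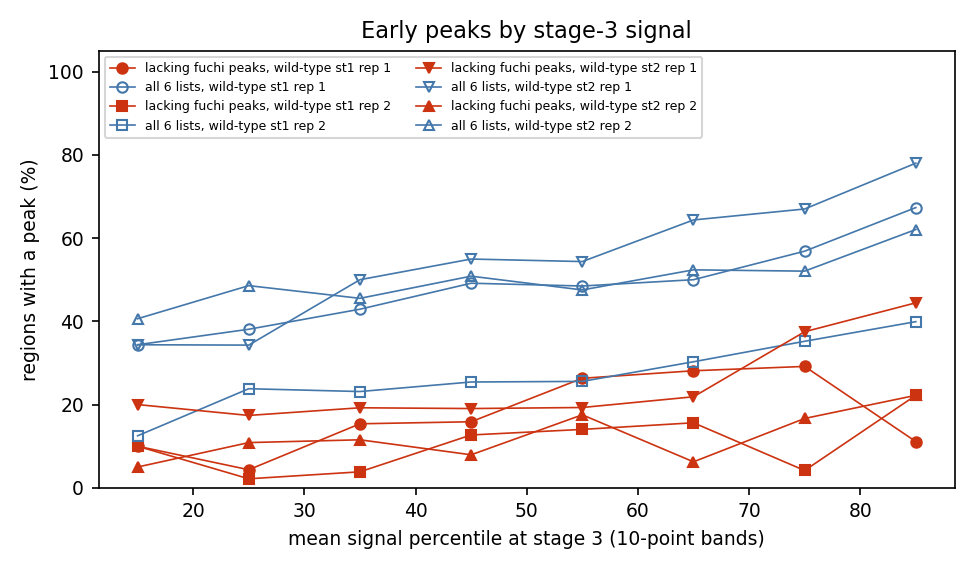
Percentage of regions with an early peak (vertical axis) by mean stage-3 signal percentile in 10-point bands (horizontal axis), for the 330 regions (filled, red) and all-6 regions (open, blue) in each of 4 libraries cut to equal length. In every library and band the filled symbol lies below the open one, and bands at the ends of the range hold as few as 9 of the 330 regions.

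Early peaks at the 330 regions were mostly seen in a single library. At the common length, 183 regions (55.5%) had none in any of the 4 early lists. That share was 42.9% for all 20289 regions and 20.2% for matched regions. Exactly 1 list held a peak at 107 regions (32.4%), near the 27.1% of all regions and 29.0% of matched regions. The reproducible early peaks were rare: 10 regions (3.03%) had a peak in both stage-1 lists and 13 (3.94%) in both stage-2 lists, against 10.8% and 15.5% of all 20289 regions and 18.9% and 30.1% of matched regions. The region with peaks in all 4 lists was NW_018370942.1:9085911-9086491. By stage, the mean share was 13.3% ± 6.00 at stage 1 and 16.4% ± 6.86 at stage 2 (SD, n = 2 each), and the stages differed by less than their replicates. The matched regions had 35.9% ± 14.7 and 50.3% ± 2.37.

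With all deposited early peaks, whose lists differ in length up to 137892 peaks, 101, 150, 214 and 89 regions had a peak (30.6%, 45.5%, 64.8% and 27.0%), against 62.0%, 65.4%, 82.2% and 63.9% of matched regions. None of the 4 lists held a peak at 44 regions (13.3%). That share was 13.6% for all 20289 regions and 2.33% for matched regions, so the 330 regions were close to the background and above the matched set. At 14 regions (4.24%) all 4 lists held a peak, against 31.6% of matched regions. By mean percentile, the strongest of the 14 was NW_018376213.1:8811247-8813812, with percentiles of 78.6, 90.1, 53.9 and 76.0 at stage 3 and a peak of rank 949 in stage 1 replicate 2. The other named regions with peaks in all 4 full lists were NW_018375944.1:3020321-3021312, NW_018368549.1:1156042-1156768 and NW_018382251.1:9457637-9458924. By the same measure, the strongest regions with no early peak at all were NW_018370506.1:6049301-6050029, described above, NW_018375680.1:2728738-2729484, NW_018379852.1:759265-760090 and NW_018370410.1:369394-370082. Their mean stage-3 percentiles were 81.0, 78.3, 75.3 and 63.1, so strong stage-3 regions occurred without any early peak.

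The 330 regions had another of the 330 nearby more often than all-6 regions of matched signal did. Within 20 kb, 24 regions (7.27%) had another of the 330, while one of the 330 lay within 20 kb of 2.89% of all 20289 regions and of 2.19% of matched regions. Over 10, 50 and 100 kb, the shares were 4.24%, 13.3% and 14.8%, and the matched shares 1.29%, 4.98% and 8.60%. Their surroundings were otherwise similar in density: 72.7% had any other stage-3 region within 20 kb against 68.4% of matched regions, and an all-6 region lay within 20 kb of 27.9% against 33.6%. Among regions lacking both wild-type peaks, 4 of 138 (2.90%) lay within 20 kb of another of their kind, and 0 of 78 among those lacking both *Pt-hh* pRNAi peaks. These sets are smaller, and the shares were not tested against each other. With wild-type replicate 2 left out of the choice, 11.7% had another of the chosen regions within 20 kb against 4.35% of matched regions. Without *fuchi* pRNAi replicate 1 the shares were 10.9% and 5.14%, and without *fuchi* pRNAi replicate 2 they were 13.9% and 7.71%.

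**Figure D5:**
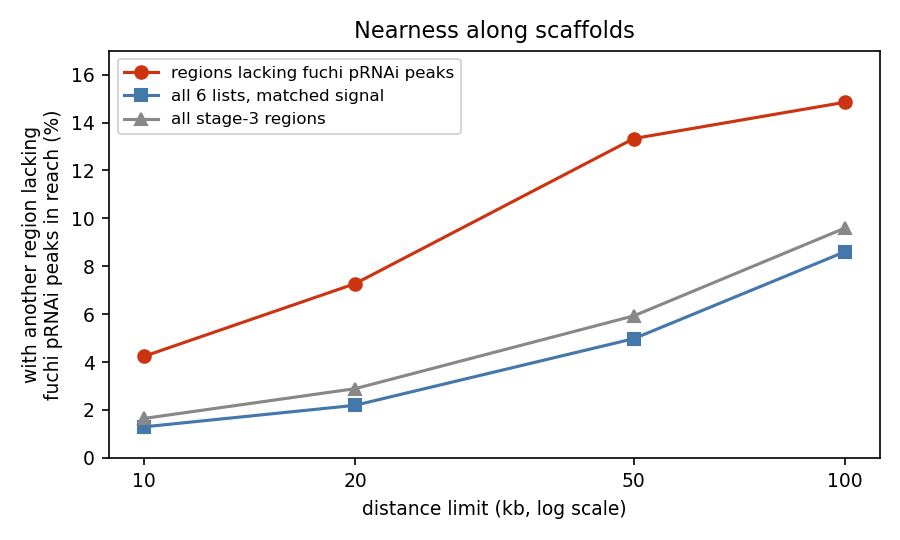
Percentage of regions with another of the 330 regions within a distance limit (vertical axis) against that limit in kb on a log scale (horizontal axis), for the 330 regions, all-6 regions of matched signal and all 20289 stage-3 regions. The 330 regions are the highest at each limit, from 4.24% at 10 kb to 14.8% at 100 kb.

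All 12 groups within 20 kb were pairs. The pair of highest signal was on NW_018373657.1, where regions from 3560849 to 3562966 and from 3563223 to 3566903 were 256 bp apart and were among the widest, at 2118 and 3681 bp. The first had percentiles of 81.3, 89.2, 82.6 and 66.1 and the second of 63.2, 76.5, 84.0 and 53.5. They count separately in the shares above. The pair on NW_018368093.1, at 67743 to 68454 and at 74280 to 75341, was 5825 bp apart, and the pair on NW_018373110.1, at 541205 to 541924 and at 545446 to 546146, was 3521 bp apart. In 8 of the 12 pairs no other stage-3 region lay between the members.

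Across the genome, the 330 regions were spread over 186 of the 949 scaffolds with any region, and 114 scaffolds held 1 each. NW_018371019.1 held 10, the highest number, and NW_018370506.1, NW_018373657.1 and NW_018373717.1 held 9 each. Relative to the regions of the 4 other lists on a scaffold, NW_018373717.1 stood out among these, with 9 of 35 (25.7%), and NW_018371019.1 had 10 of 92 (10.9%). Scaffolds with fewer regions reached higher shares, for example 3 of 9 (33.3%) on NW_018374040.1. The background over all scaffolds was 6.06%.

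Gene positions on Ptep_2.0 were at hand only for 284 genes that the study had placed next to regions it selected from these same libraries, so the genes named here are a location only and say nothing of which genes are typical of the 330 regions. The regions inside these genes were picked out after their values were seen. In all, 43 of the 330 regions lay inside 35 of the genes. The share of all regions inside the 284 genes was not taken, so this count has no background. Several of the 35 genes are regulators of development. Others are uncharacterized or annotated, for example, as alkaline phosphatase-like or myosin-I heavy chain. Over all 5445 regions with peaks in the 4 other lists, the share among the 330 was 6.06%. The listed genes were those nearest to regions that the study found to differ between *fuchi* pRNAi and wild-type embryos. A higher share inside them can thus follow from how they were listed, and no share was tested. The gene annotated as pangolin (LOC107450033), the TCF factor that acts at the end of Wnt signalling in *Drosophila*, held 4 of the 330 regions among its 20 regions with peaks in the 4 other lists, with mean percentiles of 40.2, 24.9, 37.3 and 44.5 along the scaffold. tiptop-like (LOC107441771), whose *Drosophila* counterpart encodes a zinc finger protein of the Teashirt family, held 3 of 15, with mean percentiles of 43.2, 53.7 and 56.6. It lies on NW_018373717.1, and these 3 are among the 9 of the 330 regions counted there. hunchback-like (LOC107455742), a gap gene in *Drosophila* segmentation, held 2 of 4, at 37.2 and 50.7, and these form one of the 12 pairs. The uncharacterized LOC107456753 held 2 of 2, at 64.3 and 35.6, and these form another pair.

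Further genes were picked from the same list, and no theme among them was tested. teneurin-m (LOC107447687), a cell-surface protein of neural connections in *Drosophila*, held 2 of 4, with percentiles of 84.6, 69.6, 64.2 and 86.4 in the stronger, which had no early peak at the common list length. The gene annotated as slit (LOC107443293), which encodes the secreted ligand of Robo receptors, held 1 of 2, with a mean percentile of 31.7 and no peak in any full early list. The gene annotated as Meis2 (LOC107439560), a TALE homeobox factor, held 1 of 12, with a mean percentile of 65.3. The gene annotated as groucho-1-like (LOC107445534), a corepressor, held 1 of 3, at 30.6. The Polycomb gene Psc-like (LOC107444248) held 1 of 11, at 16.3. LOC107449642, whose annotated product is uncharacterized and which is the gene model aug3.g20850 of the study, held the region of highest mean percentile inside a listed gene, NW_018378778.1:319412-320871, with percentiles of 89.1, 65.5, 83.3 and 95.5. Of the signalling and transcription factor genes on the short list used for naming, *Pt-hh* itself (LOC107451809) had a region within 100 kb, NW_018380730.1:150911-151500, outside the gene. Its percentiles were 69.4 and 63.6 in the wild type and 85.2 and 45.0 after *Pt-hh* pRNAi, and it had a weak peak in *fuchi* pRNAi replicate 2 at rank 11407.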

How the data were processed

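ATAC-seq peak lists of 10 libraries were used: 6 of stage 3 to choose the regions, and 4 wild-type libraries of stages 1 and 2 to compare them. The authors used Trim Galore! for trimming and bowtie2 2.2.5 for alignment to Ptep_2.0, as the study's methods state. They dropped alignments with mapping quality under 30, removed duplicates with Picard, and called peaks per library with Genrich in ATAC mode (0.6 in the submitters' processing notes), without a control library or pooling. The deposited signal is Genrich's area of significance over a peak. The deposited −log10 p-value is taken at the summit, and a further deposited column gives the distance from peak start to summit. Signal is not scaled between libraries, so only ranks within a list were compared. Depth is unknown, so no counting interval is given. Cutting a list to its highest peaks equalises list length and not depth.

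Python 3.11.15, pandas 2.3.3 and numpy 2.4.6 were used. A percentile is the rank by signal within a list of 10616 peaks. Matched values are those of regions with peaks in all 6 stage-3 lists, weighted to the regions' shares in 10-point bands of mean percentile. The 1 region below the 10th percentile had no match. Lists were cut to 10616 peaks except where full, deposited or shorter lists are named. The early difference was tested by an exact two-sided sign-flip permutation test over libraries. The counting was tested on simulated data, where all 200 planted regions were found.

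The regions and the lists were chosen with earlier results of these data known. Regions were named by rule: the 8 with the highest percentile in their weakest library, the 3 groups within 20 kb of highest total percentile, the 4 strongest with a peak in all 4 full early lists and the 4 strongest with none, the 3 nearest the list limit on each side, the 3 with the best-ranked peak in a full *fuchi* pRNAi list, and any within 100 kb of *fuchi*, *Pt-hh* or a short list of other signalling and transcription factor genes that the study names, where a span was at hand. That list did not hold every gene the study names. Regions named for a gene span were chosen after their values were seen. Alternatives were lists of 5308 peaks, all deposited peaks, ranking by p-value, 200-bp windows around summits, merging only at 50% overlap (of the shorter peak), other distances and bands, and each library left out in turn. Of the alternatives, 3 were added after seeing the data and are marked. Planned counts of GATA motifs and gene features needed the Ptep_2.0 genome, which was not used here, and no sequence is printed.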

Additional observations from a re-analysis of the deposited data

How the results depend on the processing

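The number of regions depended on the list length. It was 184 with lists of 0.5 times the length, which overlapped only 47 of the 330, and 834 with all deposited peaks, which overlapped 248. With 1 stage-3 library left out it was 438 to 919. It was 641 without wild-type replicate 2, 586 without *fuchi* pRNAi replicate 1 and 919 without *fuchi* pRNAi replicate 2. Leaving out a library removes a condition of the selection, so the count can hardly fall. Each of these selections overlapped 329 or 330 of the 330. Ranking by p-value gave 353 regions, which overlapped 191 of the 330. The median percentile ranged from 39.3 to 50.01 with 1 library left out. The median width was 802 bp with the shorter lists, 595 bp with ranking by p-value, and 597 to 760 bp with 1 library left out. The share with another of the regions within reach was 4.24% at 10 kb, 13.3% at 50 kb and 8.20% to 13.9% with 1 library left out. With all deposited early peaks, 38.0% of the regions had a peak at stage 1 and 45.9% at stage 2, and with 1 early library left out the shares were 9.09% to 17.6% and 11.5% to 21.2%. The early difference from matched regions stayed negative in each of the 17 alternatives run, at −17.5 points without *fuchi* pRNAi replicate 1, −32.2 points without stage 1 replicate 2, and −9.82 points against regions with a peak in 1 *fuchi* list. Its exact permutation p was 0.13, or 0.25 without an early library, each the smallest possible. Without the 82 regions with a weak *fuchi* peak, also chosen after seeing the data, the difference was −28.3 points, and 6.45% had another of the 248 within 20 kb against 1.57% of matched regions. The causes of these shifts were not tested. No paired analysis was possible because no test compared groups of samples, so replicate numbers could pair none. The sign-flip test pairs 2 sets of regions within each library and not samples. Planned motif counts were not run.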
